A study of Mus musculus with 2 samples.

Results

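Small nucleolar RNAs (snoRNAs) are short non-coding RNAs that guide the chemical modification and cleavage of ribosomal RNA in the nucleolus. Box C/D snoRNAs, named Snord in the mouse, guide 2′-O-methylation, and box H/ACA snoRNAs, named Snora, guide pseudouridylation. In mammals most of them have no promoter of their own: they lie in introns of a host gene and are cut out of the spliced intron. Hosts are often genes for ribosomal proteins or translation factors, or long non-coding RNA (lncRNA) genes of the small nucleolar RNA host gene family, named Snhg and a number, to which Gas5 also belongs.

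The 1358 genes described here are all 1340 genes of biotype snoRNA on the assembled chromosomes of GRCm38.p6 in RefSeq, the 17 lncRNA genes named Snhg and a number, and Gas5, out of 49943 annotated genes. Membership follows from the annotated biotype or name and uses no peak value. A gene was said to carry a peak when a Usp16 ChIP peak overlapped, by at least 1 bp, the stretch from 1 kb before to 1 kb after an annotated end of the gene. By this rule 58 of the 1358 members carried a peak, 51 snoRNA genes and 7 of the 18 lncRNA genes.

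Chromatin was precipitated with an antibody against Usp16, an enzyme that removes ubiquitin from histone H2A, from mouse bone marrow cells selected for c-Kit and Sca-1, surface proteins that mark blood stem and progenitor cells. A second precipitation of the same kind of cells used IgG. The mice for both carried Mx1-Cre, a recombinase gene that is active in blood cells after interferon induction, and loxP-flanked Usp16 alleles (Usp16 loxp/loxp), and their chromatin was sonicated to about 200 bp. Induction of the recombinase, the age of the mice and any pooling of animals are not stated in the labels, so it is not known whether the cells still held Usp16. Each antibody has 1 library and no replicate. All values below come from 1 list of 5046 peaks on the assembled chromosomes, so no test between samples was possible. Shares of the main groups are given with a 95% interval (exact, after Clopper and Pearson), and other shares without one. The interval covers counting error only and treats every gene as independent. Because snoRNA genes of 1 host can share a peak, the intervals for sets of snoRNA genes are too narrow. A peak's score is the authors' own, from their peak caller. Read depth is unknown, the IgG signal was not analysed here, and the lowest score listed is 50, so a gene without a listed peak is not shown to be unbound. A peak list does not measure expression, and the 2 sort marker genes, Kit and Ly6a, and Usp16 itself had no peak at their ends, the nearest lying 265, 26.2 and 12.1 kb away.

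Where a peak lay near a snoRNA gene it usually lay over the start of the host gene. The sequences around the annotated starts of 8 lncRNA hosts are therefore shown first, from RefSeq (GRCm38.p6), with 50 bases before the start and 25 from the start on. Capitals mark the unbroken run of C and T that begins at the start, the feature from which genes with a 5′-terminal oligopyrimidine tract take their name, a class that holds most ribosomal protein genes and many snoRNA hosts. The first 5 genes carried a peak over or near the start, and the last 3 did not.
Gas5 (chr1:161035116-161035190, plus strand): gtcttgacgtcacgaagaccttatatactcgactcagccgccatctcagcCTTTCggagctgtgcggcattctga
Snhg7 (chr2:26640220-26640294, minus strand): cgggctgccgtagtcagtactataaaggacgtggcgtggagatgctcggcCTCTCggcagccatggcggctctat
2410006H16Rik (chr11:62602827-62602901, plus strand): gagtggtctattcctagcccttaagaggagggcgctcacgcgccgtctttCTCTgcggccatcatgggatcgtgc
Snhg15 (chr11:6528736-6528810, minus strand): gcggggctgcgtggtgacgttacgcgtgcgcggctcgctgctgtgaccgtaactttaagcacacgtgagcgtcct
Snhg17 (chr2:158361498-158361572, minus strand): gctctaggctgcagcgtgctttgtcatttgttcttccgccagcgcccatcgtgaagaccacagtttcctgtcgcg
Snhg1 (chr19:8723437-8723511, plus strand): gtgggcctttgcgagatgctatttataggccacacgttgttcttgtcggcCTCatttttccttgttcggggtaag
Snhg8 (chr3:123508312-123508386, minus strand): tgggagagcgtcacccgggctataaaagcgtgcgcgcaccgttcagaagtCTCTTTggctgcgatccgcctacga
Snhg12 (chr4:132308628-132308702, plus strand): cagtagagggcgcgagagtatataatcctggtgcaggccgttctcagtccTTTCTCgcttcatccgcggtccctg
Runs of 5 or more pyrimidines stood at starts with a peak (Gas5, Snhg7) and at starts without one (Snhg8, Snhg12), and Snhg15 and Snhg17 carried a peak while their annotated starts began with a purine.

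The first question was how often snoRNA genes carry a peak at all. Of the 1340 snoRNA genes 51 did (3.81%, interval 2.85 to 4.97%), through 32 distinct peaks. Over all annotated genes the share was 7.88%, and over protein-coding genes it was 13.9%. Of miRNA genes, which are also short and often lie in introns, 3.34% carried a peak, of snRNA genes 6.27%, and of tRNA genes, which have promoters inside the gene, 37%. The share of all snoRNA genes was thus close to that of miRNA genes and below that of all annotated genes.

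This low share was an average over unlike sets. Of the 132 snoRNA genes with a Snord or Snora name 29 carried a peak (22.0%, interval 15.2 to 30%). The box C/D genes, with 21 of 93 Snord genes (22.6%), and the box H/ACA genes, with 8 of 39 Snora genes (20.5%), had overlapping intervals (14.6 to 32.4% and 9.30 to 36.5%). Of 910 genes named Gm and a number, most of them predicted, only 8 did (0.88%, interval 0.38 to 1.73%), and of 288 genes named LOC and a number 13 did (4.51%, interval 2.43 to 7.60%). Of 10 genes with other symbols, AF357399 in the ribosomal protein gene Rps16 carried one. A single lncRNA gene, Snhg14, the 1177 kb host of the imprinted Snord115 and Snord116 repeats, held 206 of the snoRNA genes, and none of them carried a peak. Nor did any of the 11 in Rian, another imprinted host. The peak nearest to an end of Snhg14 was 278 kb away and that of Rian 75.3 kb away. Mappability of these repeats was not tested.

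**Figure D1:**
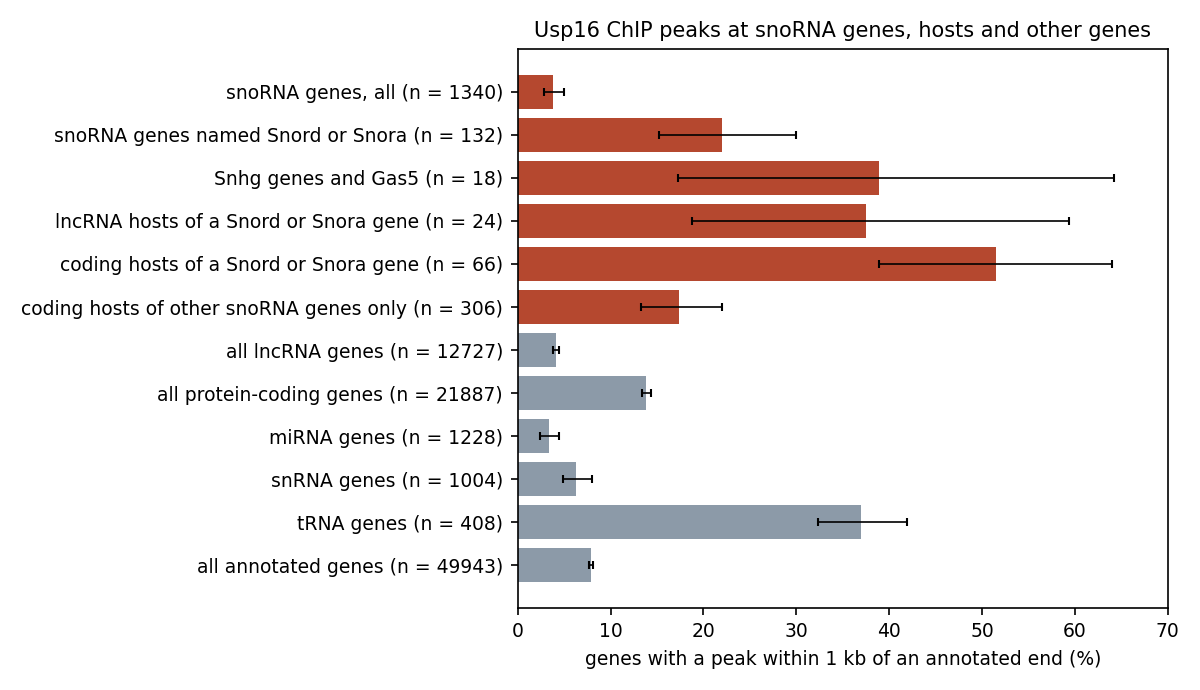
Percentage of genes of each kind with a Usp16 ChIP peak within 1 kb of an annotated end; bars give the share in the 1 peak list, whiskers the exact 95% interval, and n the number of genes. Hosts of a Snord or Snora gene reached 51.5% (coding) and 37.5% (lncRNA), against 13.9% of all protein-coding and 4.13% of all lncRNA genes.

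The host genes carried peaks more often than their snoRNAs did. A host was taken to be a protein-coding or lncRNA gene whose annotated span contains the whole snoRNA gene, on either strand, since the strand of snoRNA genes was not given. By this definition 796 snoRNA genes lay in 480 hosts, of which 372 were protein-coding and 108 were lncRNA genes, and 544 snoRNA genes had no host. Among the 66 protein-coding hosts of a Snord or Snora gene, 34 carried a peak (51.5%, interval 38.9 to 64.0%), against 13.9% of all protein-coding genes. These hosts are short, with a median length of 6790.5 bp, against 17169 bp for all protein-coding genes. Among those up to 10 kb long 23 of 40 carried a peak (57.5%, interval 40.9 to 73.0%), against 11.8% of all protein-coding genes up to that length. Of the 306 protein-coding hosts that hold only other snoRNA genes, 53 did (17.3%, interval 13.3 to 22.0%), a share near that of all protein-coding genes. Among the 24 lncRNA hosts of a Snord or Snora gene 9 did (37.5%, interval 18.8 to 59.4%), against 4.13% of all lncRNA genes and 4.97% of those up to 10 kb long. These groups are annotations counted in 1 list, and the differences between them were not tested.

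Many of these hosts are ribosomal protein genes, a group that itself often carries peaks. Of 30 ribosomal protein genes that host any snoRNA gene, 18 carried a peak (60%, interval 40.6 to 77.3%), and of the 54 that host none, 35 did (64.8%, interval 50.6 to 77.3%). Within this group the hosts thus had no higher share than the other genes. Among the Snord or Snora hosts that are not ribosomal protein genes, 20 of 42 carried a peak (47.6%, interval 32.0 to 63.6%).

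The second question was whether the peak lies at the snoRNA itself or at the end of its host. Of the 51 snoRNA genes with a peak, 49 lay in a host, and in 45 of these the peak also reached an annotated end of the host. Of the 49, 47 lay within 2 kb of a host end, where the windows of 1 kb around both can meet. A peak can then count for both, so this count cannot tell snoRNA and host end apart. The body of the snoRNA gene was overlapped by a peak in 16 cases (1.19% of 1340). A peak overlapped 9.29% of all annotated genes, 1.63% of miRNA genes, 5.48% of snRNA genes and 33.6% of tRNA genes. A long gene is overlapped more readily than a short one. The median length was 130 bp for snoRNA genes and 5956 bp for all annotated genes, so these 2 shares are not on a like footing. In 14 of the 16, the same peak also covered an annotated end of a host. The exceptions were Snord118, which has no host, and LOC115486178 in the lncRNA gene Zfas1.

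Of the 32 peaks near snoRNA genes, 31 could be set against a host. Their midpoints lay a median of 167 bp from the nearest annotated host end and 599.5 bp from the nearest snoRNA gene. The midpoint was nearer to the host end in 25 of them. It was nearer to the snoRNA in 6, at Gas5, 2410006H16Rik, Zfas1, Rpl6, Gm36220 and Rpl17. These distances are to the ends of the gene record. The Gas5 midpoint lay 5.5 bp from a second annotated start inside the record, and 233.5 bp from the nearest snoRNA gene. A base that ends a host record was covered by 29 of the 31 peaks. The strand of a host, and with it the start of transcription, was known from the RefSeq promoter table for 384 of the 480 hosts. An annotated transcript start was covered in 24 of the 26 peaks whose host had one.

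Most peaks lay at the start of the host. Of 78 hosts with a peak and known strand, 70 carried it at the start alone, 7 at both ends and 1, Chd8, at the 3′ end alone. Among all 2529 protein-coding genes with a peak and known strand, 2241 (88.6%) carried it at the start alone, 107 at both ends and 181 at the 3′ end alone. The Chd8 peak, of score 62.6, also reached the neighbouring gene Supt16. Of the 7 hosts with a peak at both ends, 3 were longer than 3 kb, and the shortest were Gm36220 (297 bp) and Snhg9 (435 bp), which a single peak spans. Relative to the nearest annotated start, midpoints of peaks at all hosts had a median of 13.5 bp upstream (quartiles −124.5 and 137.5 bp, 81 pairs of host and peak). At Snord or Snora hosts the median was 14.5 bp downstream (quartiles −55 and 235.5 bp, 37 pairs). It was 16 bp upstream at Snhg and Gas5 genes (7 pairs). Midpoints at all protein-coding genes had a median of 49 bp upstream (quartiles −190 and 99.1 bp, 2578 pairs).

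**Figure D2:**
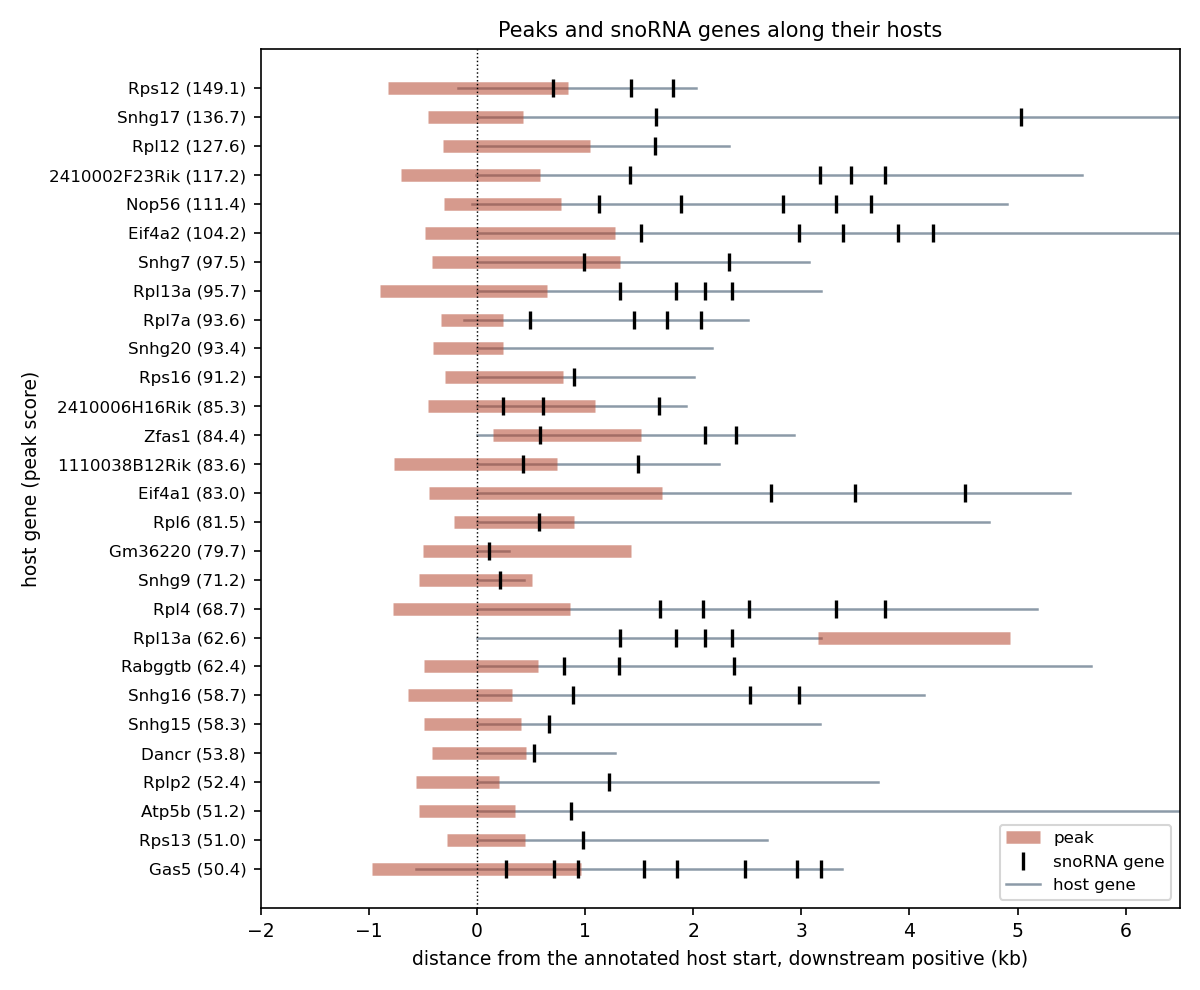
Peaks (red bars), snoRNA genes (black ticks) and host genes (grey lines) along 28 pairs of host and peak whose host has a known strand, in kb from the annotated start, downstream to the right, ordered by peak score (in brackets); hosts longer than the axis are cut off. In 26 of the 28 pairs the peak covers the start, and the exceptions are Zfas1 and the lower-scoring of the 2 Rpl13a peaks, which lies at the 3′ end.

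A peak was near a snoRNA gene mainly where the snoRNA lay close to an end of its host. Of 51 snoRNA genes within 1 kb of an end of a host that carried an end peak, 33 had a peak within 1 kb (64.7%, interval 50.1 to 77.6%). Farther in, the count was 11 of 41 at 1 to 2 kb from the end, 1 of 28 at 2 to 5 kb, and 0 of 22 and 0 of 34 at 5 to 10 kb and beyond, which allow shares of up to 15.4% and 10.3% (upper bounds of the exact 95% intervals). Since a peak at a host end is near any snoRNA that lies close to that end, this fall-off is in part set by the definition. In hosts with an end peak, 131 of 176 snoRNA genes had no peak within 1 kb of their own ends. In hosts without an end peak, 4 of 620 snoRNA genes had one (0.65%), and of the 544 without a host 2 did (0.37%). Close to a host end, the window of the snoRNA gene overlaps that of the host end. The contrast between hosts with and without an end peak is thus largely set by the definition. Of the 616 snoRNA genes more than 2 kb from both ends of their hosts only 2 carried a peak (0.32%, interval 0.04 to 1.17%). Without those in Snhg14 and Rian the count was 2 of 400 (0.5%). Most of the 616 lay in hosts without an end peak (1 of 532 with a peak), and in hosts with one the count was 1 of 84.

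SnoRNA genes in hosts with an end peak and known strand were also counted by the host end they lay nearer to. All 18 that lay nearer to the start, and within 1 kb of it, had a peak within 1 kb. Of the 20 nearer to the 3′ end, and within 1 kb of it, 9 did. Since 70 of the 78 hosts with a peak carry it at the start alone, this contrast is largely fixed by the choice of hosts with a peak. In 8 of these 9 the peak was within 1 kb of an annotated start of the host, which is possible because these hosts are only a few kb long. The ninth is Snord35a in Rpl13a, described below.

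**Figure D3:**
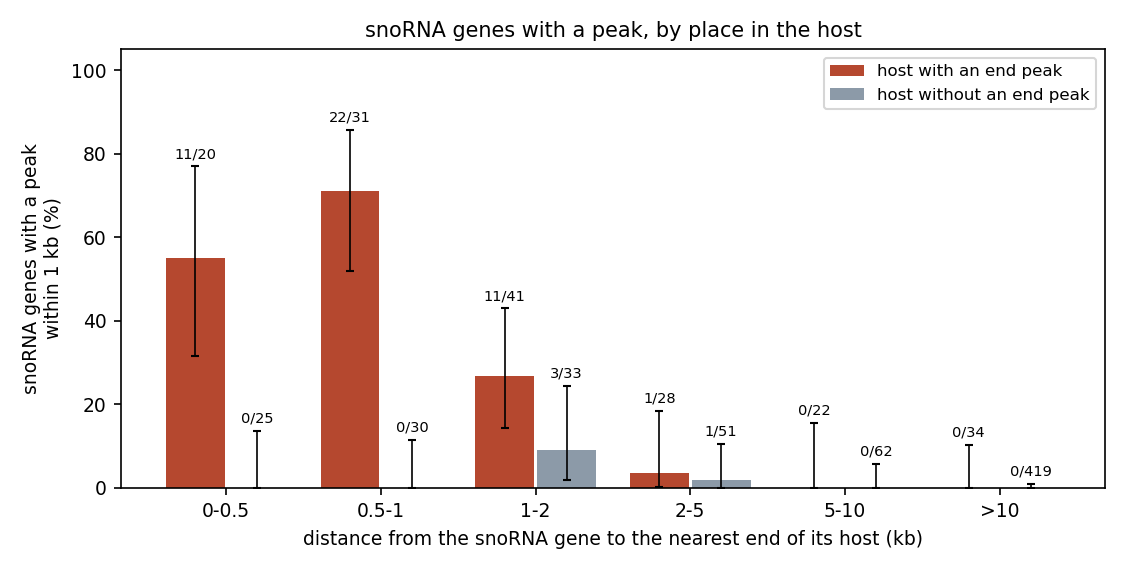
Share of snoRNA genes with a peak within 1 kb of their own ends, by distance from the snoRNA gene to the nearest annotated end of its host, for hosts with (red) and without (grey) a peak at an end; whiskers are exact 95% intervals and the labels give counts. In hosts with a peak, 11 of 20 snoRNA genes up to 500 bp from the end and 22 of 31 from there to 1 kb had a peak. In hosts without one the counts were 0 of 25 and 0 of 30. The windows of snoRNA gene and host end overlap there, so this contrast is largely set by the definition.

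The highest-scoring of the 32 peaks lay over Snord118, the gene of U8, a box C/D snoRNA needed for the maturation of 5.8S and 28S ribosomal RNA and one of the few that are transcribed from a promoter of their own. This peak (chr11:69072984-69074208, score 266, width 1225 bp) ranked 110th of the 5046 by score. Its midpoint lay 34 bp from the 137 bp long gene, which no annotated gene contains. The peak also covered the upper end of the neighbouring gene Tmem107, which ends 133 bp before Snord118, but it began 2.17 kb beyond the annotated transcript start of Tmem107 and so lay at that gene's 3′ end. The other snoRNA gene without a host, Gm22711 on the same chromosome, shared a peak of score 79.7 with Snord104 (chr11:106500416-106502340), whose 297 bp host Gm36220 lies inside the peak. This peak also reached an end of Tex2.

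Ribosomal protein hosts held many of the other high scores. The peak at Rpl3 (chr15:80082591-80083887, score 196) covered one end of the gene and the box C/D gene Snord43, and a second peak lay within 1 kb of the other end, 1153 bp from Snord83b and so just outside the limit. At Rps12 (chr10:23786364-23788037, score 149) the peak covered the start, overlapped LOC115487513 and reached to within 1 kb of Snord100 and Snora33. Rpl12 with Snora65 had a peak of score 128 and Rpl7a with Gm23969 one of 93.6, both over the start and neither over the snoRNA. Rps16 had one of 91.2, which stopped short of AF357399. At Rpl6 (score 81.5) the peak covered both the start and LOC115490270, 509 bp into the gene. Scores at Rpl23a (55, near Snord42b), Rplp2 (52.4, near Snora52) and Rps13 (51.0, near Snord14a) were lower, the last close to the lowest listed.

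Rpl13a carried peaks at both ends. The one at the start (chr7:45128097-45129642, score 95.7) was within 1 kb of Snord32a. The other (score 62.6) lay at the 3′ end and was within 1 kb of Snord35a. The Rpl13a snoRNAs in between, Snord33 and Snord34, lay 1152 and 1010 bp from the nearest peak and so just outside the limit of 1 kb. The nearest inside it were Gm26202 at 982 bp and Snora52 at 946 bp.

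At Rps2 and Rpl17 the peak was not counted at the end of the gene record. The Rps2 record begins at position 24718121 of chromosome 17, and the peak (chr17:24719460-24720502, score 71.2) began 1.34 kb beyond it. The annotated transcript start of Rps2, however, is at 24720063, inside the peak, and the start of Snhg9, on the other strand, is at 24719965, 98 bp away. The peak overlapped Snora78, which lies in Snhg9 and in the Rps2 record, and reached to within 1 kb of Snora64. The stretch between the 2 divergent starts (chr17:24719966-24720062, plus strand, RefSeq GRCm38.p6, capitals marking a GC box, GGGCGG) reads as follows.
Rps2 and Snhg9: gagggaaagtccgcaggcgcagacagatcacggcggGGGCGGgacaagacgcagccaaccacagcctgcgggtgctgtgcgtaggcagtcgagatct
By transcript starts, 39 of the 40 snoRNA genes with a peak whose host has a known start had the peak within 1 kb of such a start, the exception again being Snord35a.

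At Rpl17 (chr18:74998978-75003381), where no start was given, a peak of score 51.2 began 1.22 kb inside the record and lay within 1 kb of Snord58b, Gm23301 and Gm26202 without touching them.

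Among the other coding hosts with a snoRNA gene near the peak, Nop56, a core protein of box C/D particles, had a peak over its start (score 111) that was within 1 kb of Snord110 but not of its other 4 snoRNA genes, Snord57 among them. The peak at Eif4a2 (score 104), which encodes a helicase of translation initiation, was near Snord2 alone of 5 snoRNA genes. Its paralog Eif4a1 had the widest of the 32 peaks (2155 bp, score 83.0), which reached to 933 bp from LOC115487892, 2645 bp from the host's nearer end. This gene and Snord58b are the 2 that lay over 2 kb from both host ends and still counted. Peaks at 2410002F23Rik (117), Rabggtb (62.4), which encodes a subunit of Rab geranylgeranyl transferase, and Atp5b (51.3), an ATP synthase subunit gene, also lay over the start and near 1 or 2 of the snoRNA genes inside.

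Several of the hosts with the highest scores had no snoRNA gene near the peak. Among all protein-coding hosts the 15 highest best scores were at Slmap (207), Rpl3, Eef1b2 (192), Rps3a1 (172), Psmd1 (163), Cct6a (152), Clasp1 (151), Rps12, Zbtb40 (147), AU040320 (132), Champ1 (131), Rpl4 (128), Rpl12, Ap1g1 (127) and Uchl5 (119). Of these, Eef1b2 (an elongation factor subunit, hosting Snora41), Rps3a1 (Snord73a), Cct6a (a chaperonin subunit, Snora15) and Ap1g1 (an adaptor protein subunit, Snord71) had none of their snoRNA genes within 1 kb of a peak. The other hosts of a Snord or Snora gene among the 15 were Rpl3, Rps12, Rpl4 and Rpl12, each with a snoRNA gene within 1 kb of a peak. The peaks at Eef1b2, Cct6a, AU040320, Rpl12 and Uchl5 also reached Ndufs1, Psph, Ncdn, Lrsam1 and Ro60, in that order. The Rpl4 peak of 128 lay at the 3′ end towards Snapc5, and the one at its start scored 68.7 and was near Gm23344.

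Of the 66 coding hosts of a Snord or Snora gene, 32 carried no end peak. They include the ribosomal protein genes Rps3, Rpl5, Rpl13, Rpl23, Rpl27a, Rpl32 and Rpl39, the elongation factor gene Eef2 (Snord37), Rack1, which encodes a ribosome-associated scaffold protein, the nucleolar gene Gnl3, and Tpt1. Rpl17, Rps2, Srr, Zbed3 and Ckap5 are among the 32 although each has a peak inside its record.

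Of the 18 Snhg and Gas5 genes 7 carried a peak (38.9%, interval 17.3 to 64.3%), against 4.13% of all lncRNA genes. The best score was at Snhg17 (137, chr2:158361097-158361974), whose midpoint lay 13.5 bp from the start, and its 2 snoRNA genes, farther in, had none within 1 kb. Snhg7 followed (97.5), with a peak that covered the start and Snora17 and was 938 bp from Snora43. Snhg20, in which no snoRNA gene is annotated, had a peak of 93.4 that also reached Mir6516. Snhg9 (71.2) shares its peak with the start of Rps2. Snhg16, with 3 Snord1 genes, had one of 58.7 near Snord1c, the first of them, and Snhg15 one of 58.3 near LOC115487884.

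Gas5, whose RNA accumulates in growth-arrested cells and which hosts 8 annotated snoRNA genes, had a wide but low-scoring peak (chr1:161034191-161036130, 1940 bp, score 50.4). Only 1.80% of all peaks scored as low or lower. Its midpoint lay 5.5 bp from the second annotated Gas5 start, at 161035166. The peak overlapped the first 3 snoRNA genes and was within 1 kb of the next 2, while the last 3, among them Snord47, had none. It also reached the neighbouring gene Zbtb37.

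None was listed for the other 11 Snhg genes, among them Snhg1, Snhg3, Snhg4, Snhg5, Snhg6, Snhg8, Snhg10, Snhg11, Snhg12 and Snhg14. The nearest peak was 3.25 kb from an end of Snhg4 and 5.93 kb from Snhg3, and between 13.7 and 290 kb away for the rest. Snhg1, with 8 snoRNA genes, and Snhg12, with 4, were thus without a listed peak, at 14.7 and 34.5 kb. Of 14 hosts with 4 or more snoRNA genes 10 carried an end peak, and the 4 without were Snhg1, Snhg12, Snhg14 and Rian, all of them lncRNA genes. Nop58 (62.5), with 4, and Taf1d (68.9), with 6, had a peak at the start and no snoRNA gene within 1 kb of it.

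Among 12 lncRNA hosts of a Snord or Snora gene outside this family, 5 carried a peak (41.7%, interval 15.2 to 72.3%). Zfas1 (chr2:167063080-167064449, score 84.4) is the exception in position. Its peak began 146 bp downstream of the annotated start, its midpoint lay 830.5 bp downstream, and it overlapped LOC115486178 and reached to within 1 kb of Gm23201 and Snord12 and an end of Znfx1. In 2410006H16Rik (85.3) the peak covered the start, Snord49b and Snord49a and was near Snord65. In 1110038B12Rik (83.6) it covered the start and LOC115488834 and was near Snord52. Dancr (53.8) had one that ended 21 bp before Snora26. The fifth is Gm36220, described above. Epb41l4aos (92.1), which hosts the predicted gene Gm23639 only, had a peak over both, which also reached Epb41l4a.

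The peaks near snoRNA genes were also described by width and score. The median width of the 32 was 1172 bp (quartiles 894.8 and 1569.8 bp), while all peaks at protein-coding gene ends had a median of 788.5 bp and all peaks 683 bp. A wide peak meets a window more readily, so part of this is set by how the peaks were chosen. Peaks at the ends of protein-coding hosts, which were not chosen by distance to a snoRNA, had a median of 916 bp (90 peaks). The median score of the 32 was 82.3 (quartiles 58.6 and 96.2), against 74.4 at protein-coding gene ends (quartiles 59.9 and 106) and 69.9 over all peaks. The 12 peaks that overlapped a snoRNA gene had a median score of 84.8 and a median width of 1438.5 bp, and the other 20 had 65.6 and 1006 bp. In 13 of the 32 the peak also reached an end of a gene that is neither the snoRNA nor its host.

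**Figure D4:**
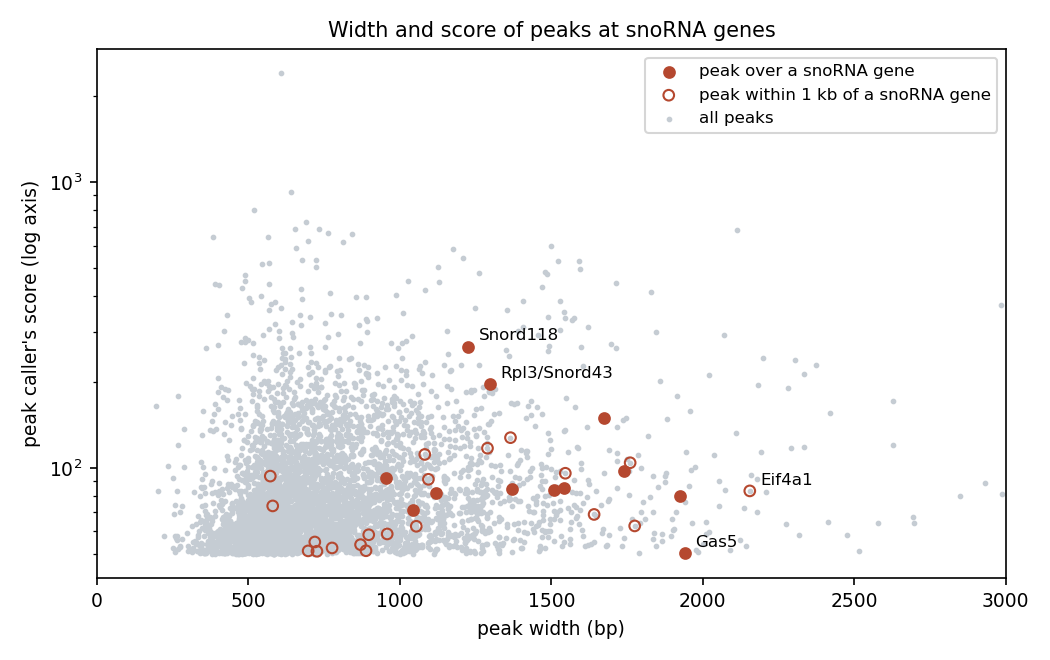
Peak caller's score (log axis) against peak width in bp for all peaks (grey; 8 peaks wider than 3000 bp are outside the axis), the 12 peaks over a snoRNA gene (filled red) and the 20 peaks within 1 kb of one (open red). The Snord118 peak, of score 266, is the highest of the red points, and the Gas5 peak, 1940 bp wide, is the lowest.

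The proteins that snoRNAs work with were looked at last. Of 24 genes for snoRNP core proteins and for assembly, processing and Cajal body factors, 11 carried a peak (45.8%), against 13.9% of all protein-coding genes. Among core proteins of box C/D particles these were Nop56 (111) and Nop58 (62.5), both themselves snoRNA hosts, and not Fbl, the methyltransferase, or Snu13. Among those of box H/ACA particles they were Gar1 (122), Nop10 (61.5) and Dkc1 (61.1), the pseudouridine synthase and also a host, and not Nhp2. Of the 16 assembly and processing genes 6 carried one: Znhit3 (143), Ruvbl1 (114), Naf1 (106), Exosc10 (97.6, a peak that also reached Mtor), Nolc1 (66.0) and Xrn2 (52.2). Without the 3 hosts the count was 8 of 21.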

How the data were processed

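The 1 table analysed is a list of peaks that the authors called with MACS in Galaxy, per the file headers. Bowtie and Picard were used with mm10, in versions not stated, per the submitters' processing notes. How MACS was set and whether IgG served as its control is information not given in the sources used here. Scores that the authors deposited with every peak come from MACS, on a score scale not stated, and rank peaks within this list alone.

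Starts were made 1-based, the midpoint was taken as the position, and 5046 of 5079 peaks lay on assembled chromosomes. Gene spans came from RefSeq (GRCm38.p6, the build called mm10), and a peak counted at a gene if it overlapped the 1 kb on either side of an end by at least 1 bp. Transcript starts and strand came from a RefSeq promoter table that holds 27025 genes, and no snoRNA sequence or strand was given. Counts, medians and intervals were computed in Python 3.11.15 with pandas 2.3.3, numpy 2.4.6 and SciPy 1.17.1, and the classification was checked on planted peaks. Members, gene lists and named genes were chosen with earlier results of these data known. Named were the 15 highest-scoring peaks at snoRNA genes, those away from host ends, the 15 highest-scoring coding hosts, hosts of 4 or more snoRNAs, the Snhg and Gas5 genes, and the snoRNP genes with a peak. Others were named to complete a group after their values were seen. Results at 2 loci are not reported here.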

Additional observations from a re-analysis of the deposited data

How the results depend on the processing

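Each of the 6 counts was repeated under 8 other settings, and 4 of them also without the 217 snoRNA genes in Snhg14 and Rian, a setting chosen after seeing the data. Of 52 values 32 stayed within 1.5 times the main one. Some of these could not change, so the tally is no measure of stability. Body overlap does not use the window, leaving out Gm symbols does not touch Snhg genes, and the 217 left-out genes carried no peak. The 51 snoRNA genes with a peak became 29 with a window of 500 bp, 124 with 5 kb, 30 with the midpoint in the window, 30 with at least 50% of the peak in it and 31 with the 2524 peaks at or above the median score. Those with the peak at the host end became 25 of 27, 114 of 116, 25 of 28, 25 of 28 and 28 of 29 in the same order, against 45 of 49. In these counts too, 1 peak can count for both the snoRNA gene and a nearby host end. The share of snoRNA genes was 2.16% at 500 bp and 9.25% at 5 kb, against 7.22% and 11.3% of all annotated genes. By midpoint it was 2.24%, against 7.31%, and with the higher scores 2.31%, against 4.57%. The 16 snoRNA genes overlapped by a peak became 0 with the midpoint or 50% of the peak inside the gene, which is far shorter than a peak. The 2 snoRNA genes far from host ends became 1 with 500 bp, the midpoint, 50% of the peak or the higher scores, and 27 with 5 kb. With the higher scores the 7 Snhg and Gas5 genes became 4 and the 87 protein-coding hosts 54 of 372 (14.5%, against 8.03% of all protein-coding genes). Without Gm symbols 52 of 143 protein-coding hosts carried a peak. The list holds only peaks above the lowest score and read depth is unknown, so weaker sites cannot be seen. No paired analysis was possible because each antibody has 1 library.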

Other observations

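Promoter letters of the hosts were counted in the 300 bases of each annotated start, on both strands. With a peak means here a peak at either end of the gene record. Rps2, whose start lies inside a peak, was thus counted as without one, and Chd8, with a peak at the 3′ end alone, as with one. The GC box GGGCGG stood in 30 of 38 promoters of Snord or Snora hosts with a peak (78.9%) and in 22 of 41 promoters of those without one (53.7%). It stood in 58.1% of the promoters of all genes with an end peak and in 35.7% of all 32851 promoters. The E-box CACGTG was in 5 of 38 and 10 of 41 (13.2% and 24.4%, against 7.15% of all promoters). Among all hosts the order was the reverse, with 16 of 90 promoters with a peak and 42 of 389 without (17.8% and 10.8%). TATAAA was in 6 of 38 and 12 of 41 (against 13.6%), and the ETS-type CTTCCGG in 8 of 38 and 10 of 41 (against 8.86%). In the promoters of all genes with an end peak, CACGTG stood in 10.6%, TATAAA in 7.43% and CTTCCGG in 22.2%. For CTTCCGG this is close to the 21.1% of these hosts with a peak. Shares of CCAAT were 36.8% and 41.5%, against 37.4% of all promoters, and GATTGGC, which contains CCAAT on the other strand, was in 3 promoters of each set. ACTACA was in 4 of 38 and 7 of 41. A start with C followed by 4 pyrimidines was annotated in 5 of 38 promoters of hosts with a peak and 4 of 41 of those without (13.2% and 9.76%), against 2.51% of all promoters. The hosts with a peak were Gas5, Snhg7, Rplp2, Gm36220 and 1110038B12Rik. These counts describe letters in the annotated windows and were not tested.

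The miRNA genes, counted in the same way, had peaks that mostly reached a host end too, as did 45 of the 49 snoRNA genes in a host. A peak near a gene that lies close to a host end counts for both, so these counts cannot tell the places apart. Of 946 miRNA genes in a host 29 carried a peak, and for 26 of them the peak reached an end of the host. Among genes without a host, 2 of 544 snoRNA genes and 12 of 282 miRNA genes carried a peak.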
